A study of Mus musculus with 9 samples.

Results

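Endothelial cells line the blood vessels of a tumour, and here they were the host's own cells in mouse mammary tumours. They were chosen cell by cell from their transcripts. Cells were kept with over 500 and under 7500 detected genes and under 15% mitochondrial transcripts. A kept cell counted as endothelial when no unique molecular identifier (UMI, 1 captured transcript molecule) was found for H2BMc, Krt8 and Ptprc and when at least 4 of 8 endothelial markers were detected (Pecam1, Cdh5, Kdr, Flt1, Cldn5, Emcn, Egfl7 and Plvap). H2BMc is the fluorescent histone reporter of the tumour cells, Krt8 an epithelial keratin and Ptprc the leukocyte antigen CD45. The rule found 405 endothelial cells among 58645 kept cells, out of 89147 cell barcodes.

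The tumours were grown from 168FARN, a mouse mammary tumour line, injected into the mammary fat pad of syngeneic, immunocompetent female BALB/c mice. The 168FARN cells of every group carried the H2BMc reporter, and they were either wild-type (WT), knocked out for the histone methyltransferase gene Kmt2c (Kmt2c KO) or knocked out for its paralogue Kmt2d (Kmt2d KO). Each knockout was a sorted pool of cells edited with several guide RNAs against 1 gene, not a clone. Whole-tumour suspensions were sequenced cell by cell from the 5′ end of transcripts in droplets, with 3 libraries a group. The endothelium came from the mouse and was not edited in any group, so each comparison asks how host vessel cells differed between tumours of different genotype. The sources used here do not give the age of the mice at collection. Tumours were digested and freed of debris on Percoll layers before loading, and how many vessel cells these steps recovered is not known. The group of each library was read from the genotype letter of the aggregation table, and the numbers 1 to 3 only name libraries.

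Endothelium differs along the vessel. Arterial cells hold connexins and Notch pathway genes, capillary cells hold fatty-acid carriers and water channels, and venous cells hold the adhesion molecules that leukocytes use to leave the blood. At a growing sprout, tip cells express genes that VEGF induces, among them apelin and angiopoietin-2. Under interferon gamma, endothelial cells can also express MHC class II molecules, which display peptides to CD4+ T cells, and chemokines that draw T cells.

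The WT libraries held 45, 67 and 51 endothelial cells, the Kmt2c KO libraries 46, 37 and 27 and the Kmt2d KO libraries 46, 32 and 54. The summed endothelial UMIs ran from 164344 to 489471 per library, and the median endothelial cell of a library held 3258.5 to 8353 UMIs. Levels are given as CPM, the counts of a gene scaled to a fixed total of the summed endothelial UMIs of a library, so that a level compares a gene between libraries and not 1 gene with another. A CPM value or a share of cells carries counting error beyond the spread between libraries, and all intervals given here cover counting error only. The study describes the libraries of a group as biological replicates, and p-values measure the spread between them. No endothelial cell shared its barcode with an endothelial cell of another library, and 20 of the 405 shared it with any cell of another library.

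The label was checked with genes that the rule did not use. All 28 further endothelial genes were detected, in 38.3% of the cells for Nos3, the endothelial nitric oxide synthase, up to 90.4% for Ramp2, a co-receptor for adrenomedullin. Over all libraries Tie1, an endothelial receptor tyrosine kinase, reached 431 CPM in endothelial cells and 0.431 CPM in tumour cells (kept cells with a UMI of both H2BMc and Krt8 and none of Ptprc). Sox18, an endothelial transcription factor, reached 904 CPM against 0.392 CPM. Together the 28 genes made up 11286 to 12385 CPM in the WT libraries, 10006 to 11634 CPM in the Kmt2c KO libraries and 11139 to 11613 CPM in the Kmt2d KO libraries, so the label held in each library. Among cells without the 3 gate genes, 192 held all 8 rule markers, 28 held 4 and 18 held 3. The median cell with 4 markers had 1365.5 UMIs and 7.5 of the 28 further genes, and the median cell with 3 markers had 1355.5 UMIs and 5.5 of them. The median endothelial cell had 5195 UMIs and 20 of them. Of the 441 cells with at least 4 markers, 36 (8.16%) held a UMI of H2BMc, Krt8 or Ptprc and were left out.

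Transcripts of other cell types were low but not equal between groups. The 11 macrophage markers summed to 32.7 to 49.6 CPM in the WT, 73.0 to 76.3 CPM in the Kmt2c KO and 14.0 to 34.9 CPM in the Kmt2d KO libraries, with Mrc1 at 0. Of the 7 lymphocyte markers 1 was found, in 1 cell. Fibroblast markers reached 173 CPM and mural markers (pericytes and smooth muscle) 430 CPM in Kmt2c KO library 2, against at most 92.8 and 219 CPM in the other libraries. These values are set beside the results they move with. Apart from a run without the cells that held at least 2 of these marker genes, their part in those results was not tested.

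Most of the cells had a capillary pattern. With at least 2 of 5 core genes as the limit, 358 of the 405 cells (88.4%) held the capillary set (Gpihbp1, Rgcc, Car4, Cd36, Btnl9), 240 (59.3%) the tip set (Apln, Esm1, Angpt2, Pdgfb, Cxcr4), 70 (17.3%) the venous set (Nr2f2, Ackr1, Selp, Vwf, Ephb4) and 51 (12.6%) the arterial set (Gja5, Gja4, Hey1, Sema3g, Bmx). Gpihbp1, which carries lipoprotein lipase to the capillary lumen, was detected in 91.4% of the cells (95% Wilson interval 88.2 to 93.7%) and in 0.256% of the deeper tumour cells, and in 83.2% of the 398 endothelial cells that could be thinned to 1000 UMIs. Fabp4, a fatty-acid carrier, was detected in 93.8%, and Igfbp3, a growth factor binding protein of tumour vessels, in 89.6%. Defining genes of large vessels were sparse, with the arterial connexin Gja4 in 11.1% of the cells and the venous-side von Willebrand factor gene Vwf in 5.19%. Sele, the E-selectin gene, had no UMI in any endothelial cell, which allows a level of up to 1.12 CPM over all libraries. Venous core genes were also found in tumour cells, with Nr2f2 detected in 20.5% of endothelial and 45.3% of tumour cells and Ephb4 in 44.0% and 43.6%. The tumour cells were deeper, so these rates do not compare levels between the classes.

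The programmes were not separate cell classes. Of the 240 cells with the tip set, 219 (91.2%) also held the capillary set, as did 47 (92.2%) of the 51 with the arterial set. A total of 262 cells held at least 2 of the sets, 125 held 1 and 18 held none. Depth moved with the sets, because the median cell had 5474.5 UMIs with the capillary set and 2323 without it. These values were 7129 and 3207 for the tip set, 9271.5 and 4613 for the venous set and 6194 and 4945.5 for the arterial set. Genes outside the core followed the arterial set, with Fbln5, an elastic fibre protein, at 419 CPM in cells with the set and 128 CPM in cells without it, and Stmn2 at 72.9 and 2.21 CPM. In cells with the tip set Adm, the vasodilator adrenomedullin, stood at 272 CPM against 53.8 CPM, and the fatty-acid receptor gene Cd36 at 528 CPM against 1004 CPM. Because cells were sorted by their own transcripts, these differences are descriptions.

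Endothelial cells made up a larger part of the kept cells in WT tumours. Their share was 3.80, 2.82 and 5.43% in the WT libraries, 0.389, 0.423 and 0.448% in the Kmt2c KO libraries and 0.767, 0.455 and 0.372% in the Kmt2d KO libraries. The WT libraries lay above all the knockout libraries, and the 2 knockout groups overlapped. The means were 4.01% ± 1.32 (SD, n = 3), 0.420% ± 0.0295 and 0.531% ± 0.208. The Kruskal-Wallis statistic, with an exact permutation p over 1680 assignments of libraries to groups, gave p = 0.05. Each pair of groups was compared by a two-sided exact permutation test, whose smallest p with 3 against 3 is 0.1, and p was 0.1 for both knockouts against WT (adjusted over the 3 pairs 0.15) and 0.6 between the knockouts. The number of kept cells moved with the share, with 939 to 2380 in the WT, 6024 to 11813 in the Kmt2c KO and 5997 to 14525 in the Kmt2d KO libraries. The cell limits kept 1185 of 3109, 2380 of 3835 and 939 of 3682 barcodes in the WT libraries. They kept 11813 of 14124, 8743 of 11621 and 6024 of 9775 in Kmt2c KO. In Kmt2d KO they kept 5997 of 9214, 7039 of 10858 and 14525 of 22929. The share over all barcodes was not tested. The endothelial cells themselves numbered 163, 110 and 132 in the 3 groups. A single random draw of 1000 UMIs per cell was also used, with the zero gates and at least 2 markers required in it. Shallower cells were left out, 22, 40 and 25 in WT, 193, 205 and 121 in Kmt2c KO and 85, 451 and 1763 in Kmt2d KO. Endothelial cells then numbered 49, 71 and 52, 58, 40 and 30, and 44, 41 and 76. The means were 4.31, 0.492 and 0.654% and p was 0.00357, the smallest that this exact permutation test can give. The thinned shares were 0.499, 0.468 and 0.508% in the Kmt2c KO and 0.744, 0.622 and 0.596% in the Kmt2d KO libraries. The knockout groups did not overlap in that draw (exact permutation p = 0.1, the smallest with 3 against 3). Other draws were not made for this share. Over kept cells without H2BMc and Krt8 the means were 15.4, 1.36 and 1.92%, with p = 0.0714 by the same permutation test, and p was also 0.0714 with zero gates relaxed to at most 1 UMI and at a mitochondrial limit of 10%. A smaller number of endothelial cells and a larger number of other cells recovered cannot be told apart in a share.

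**Figure D1:**
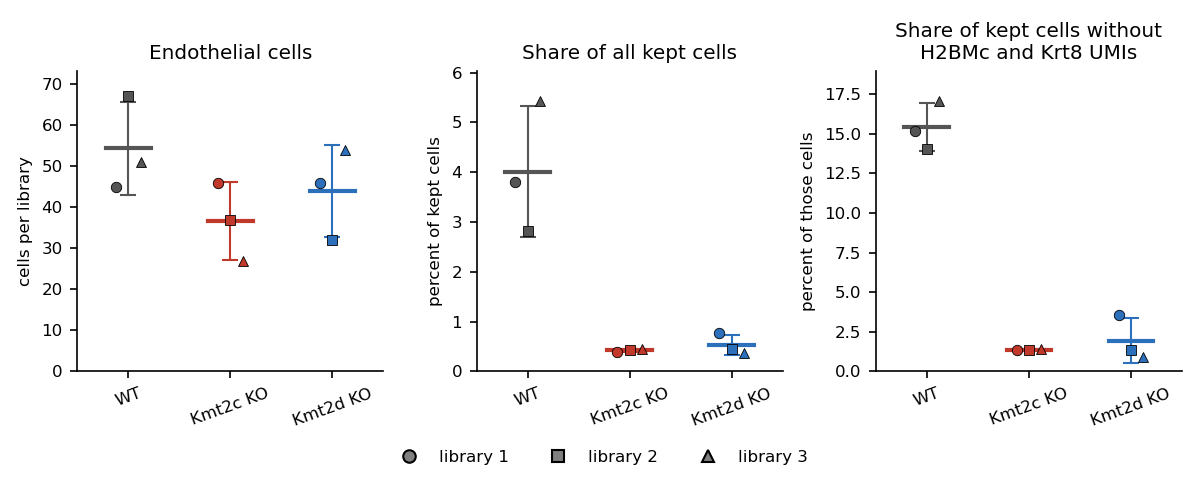
Endothelial cells per library (left), their share of all kept cells (percent, middle) and their share of kept cells without H2BMc and Krt8 UMIs (percent, right). Shown are 1 point per library, bars at group means and error bars of 1 SD. The 3 WT libraries lie at 2.82 to 5.43% of kept cells and the 6 knockout libraries at 0.372 to 0.767%.

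The mix of programmes also differed in description. The arterial set was held by 20.0, 14.9 and 23.5% of the endothelial cells of the WT libraries, by 13.0, 8.11 and 14.8% of the Kmt2c KO and by 0, 6.25 and 9.26% of the Kmt2d KO libraries. The WT libraries were highest, and neither knockout group overlapped them. The venous set was held by 31.1, 22.4 and 23.5%, 15.2, 5.41 and 18.5%, and 10.9, 15.6 and 9.26%, again without overlap between WT and either knockout. Median depth differed between libraries, at 4968 to 8353 UMIs per cell in the WT, 3258.5 to 6542 in the Kmt2c KO and 4956 to 5694.5 in the Kmt2d KO libraries, so the shares were also taken with every cell thinned to 1000 UMIs, as the mean of 100 draws. The arterial set was then held by 8.24, 3.58 and 8.20% in WT, 3.93, 0.389 and 5.52% in Kmt2c KO and 0, 0.125 and 1.15% in Kmt2d KO, and at least 1 of its genes by 18.8, 13.9 and 15.7%, 15.3, 10.8 and 14.7%, and 4.20, 6.72 and 8.30%. At this depth Kmt2c KO overlapped WT and Kmt2d KO lay below it. At least 1 venous gene was held by 16 to 23% in WT, 13.9 to 17.6% in Kmt2c KO and 14.5 to 19.4% in Kmt2d KO, and the groups overlapped.

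The capillary set was held by 93.3, 95.5 and 94.1% of the WT cells, by 82.6, 75.7 and 77.8% of the Kmt2c KO cells and by 89.1, 81.2 and 92.6% of the Kmt2d KO cells. Thinned, the shares were 66.1, 77.8 and 71.4%, 56.2, 50.5 and 52.0%, and 73.5, 48.9 and 68.2%. Kmt2c KO lay below WT in both, and Kmt2d KO overlapped WT once thinned. The tip set was held by 48.9, 56.7 and 58.8% in WT, 50.0, 78.4 and 70.4% in Kmt2c KO and 54.3, 68.8 and 59.3% in Kmt2d KO, with overlap between all groups, as also in thinned cells (11.2 to 17.9%, 16.1 to 36.1% and 16.4 to 32.9%). At least 1 tip gene was held by 38.4, 46.3 and 44.9% of thinned cells in WT, 52.7, 69.7 and 71.6% in Kmt2c KO and 54.8, 62.6 and 49.1% in Kmt2d KO, so that both knockouts lay above WT by that limit.

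In Kmt2c KO tumours the endothelium carried far more antigen-presentation and interferon-response transcripts than in WT tumours, several capillary genes were lower and part of the tip set was higher. The sums of all 9 libraries entered 1 fit of edgeR's quasi-likelihood test with Benjamini-Hochberg adjustment, and a gene was called at an adjusted p below 0.05. Of 5319 genes tested, 230 (4.32%) were called higher in Kmt2c KO and 91 (1.71%) were called lower, together 6.03%, while 1079 (20.3%) had an unadjusted p below 0.05. Of the calls, 225 (4.23% of genes tested) and 90 (1.69%) had libraries that did not overlap between the groups. Over all genes tested, called or not, 12.5% lay higher and 15.4% lower without overlap, and the median log2 fold change was 0.01. The number of calls depended on single libraries and ranged from 89, without Kmt2c KO library 3, to 628, without Kmt2d KO library 2. Of 111 calls of named genes, 68, 61 and 37 were lost without WT libraries 1, 2 and 3 and 28, 50 and 63 without Kmt2c KO libraries 1, 2 and 3. Those lost without WT library 1 included Cd74, Angpt2 and H2-K1. Counts over a gene list cover the members with enough UMIs to test. Members low in WT passed that limit through their level in the knockouts. Members low in a knockout passed it through their level in the other groups, so counts over a list are descriptions. The calls of genes such as Cd74, Ccl2, Pgf, Pfkfb3, Ubd and Serping1 are descriptions too. They were tested only because of their level in the knockouts. All adjusted p-values below are from this test, and errors of log2 fold changes are standard errors.

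Of the 12 MHC class II genes, 6 had enough UMIs to test and were called higher, against 4.32% called higher over all genes. Their median log2 fold change was 3.82. Ciita and Cd74 were among those tested only because of their level in the knockouts, so their calls are descriptions. Cd74, the invariant chain that guards the peptide groove, stood at 24.8, 111 and 149 CPM in the WT, 2453, 1993 and 2689 CPM in the Kmt2c KO and 94.5, 2597 and 147 CPM in the Kmt2d KO libraries. The Kmt2c KO libraries lay together above every WT library, and of the Kmt2d KO libraries 1, library 2, lay with them. For Kmt2c KO against WT the log2 fold change was 4.64 ± 0.93 (SE), with adjusted p = 0.0102 by edgeR. H2-Ab1, a class II beta chain, stood at 35.8, 80.5 and 96.0 CPM in WT, 1077, 1069 and 1028 CPM in Kmt2c KO and 84.0, 947 and 136 CPM in Kmt2d KO, with the same libraries high (log2 fold change 3.91 ± 0.66 (SE), adjusted p = 0.00394). Its partner alpha chain H2-Aa rose by 3.33 ± 0.72 on the log2 scale (adjusted p = 0.0138), the beta chain H2-Eb1 by 3.74 ± 0.78 (adjusted p = 0.0125) and H2-DMa, a subunit of the peptide exchanger, by 3.28 ± 0.80 (adjusted p = 0.0253). Ciita, the transactivator on which class II genes depend, had 3 UMIs in the WT libraries together and 23 in the Kmt2c KO libraries, a ratio of 16.3 in pooled CPM (exact 95% counting interval 4.93 to 84.9, adjusted p = 0.0356). H2-DMb1, H2-DMb2 and the protease gene Ctss were detected but too low to test, and H2-Eb2, H2-Oa and H2-Ob had no UMI. The study lists Cd74, Cxcl9, H2-Ab1 and H2-Eb2 among the top genes raised in endothelial cells of both knockouts in these samples. They were named here for that reason, so their direction is not independent evidence. H2-Eb2 had no UMI and so showed no direction. Of the Kmt2d KO libraries, library 2 lay far above the others for Cd74, H2-Ab1 and Cxcl9.

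The rise was spread over cells. With every cell thinned to 1000 UMIs (mean of 100 draws), which left out 7 of the 405, at least 2 of Cd74, H2-Aa, H2-Ab1 and H2-Eb1 were detected in 0.533, 4.14 and 7.04% of the cells of the WT libraries, 65.1, 52.5 and 56.8% of the Kmt2c KO and 2.02, 63 and 9.44% of the Kmt2d KO libraries. Without thinning the shares were 6.67, 7.46 and 23.5%, 82.6, 81.1 and 74.1%, and 8.70, 84.4 and 33.3%. At either depth over 50% of the cells of the Kmt2c KO libraries and of Kmt2d KO library 2 held at least 2 of the genes, and at most 33.3% of the cells of any other library did. At least 1 of the genes was found without thinning in up to 47.1% of the cells of a WT library and in 59.3% of those of Kmt2d KO library 3. Cd74 is also abundant in leukocytes. Pooled over a group, endothelial cells of Kmt2c KO tumours held 20.2% of the Cd74 level of Ptprc-positive cells, 0.326% of their level of the macrophage lysozyme Lyz2, 0.327% of C1qa, 0.432% of Tyrobp and 2.07% of Fcer1g. In WT tumours endothelial Cd74 was at 0.537% of the level in Ptprc-positive cells. Tumour cells had a Cd74 level of 2.89, 2.46 and 5.50 CPM in WT, 28.3, 49.2 and 71.2 CPM in Kmt2c KO and 6.79, 42.8 and 5.90 CPM in Kmt2d KO, with the same Kmt2d KO library high. Macrophage markers also rose in tumour cell sums of Kmt2c KO, where 4 of 9 tested were called higher, against 8.6% of all genes tested. Their part in these Cd74 values was not tested.

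The promoters of genes that rose together are shown because class II and interferon gamma genes are known to be driven through short promoter elements, among them the CCAAT box and the gamma-activated site, TTCNNNGAA. The 250 bases before the RefSeq transcript start are printed on the gene's strand (build GRCm38.p6), with each CCAAT or its complement ATTGG and each TTCNNNGAA in capitals. Of the 12 class II genes, 9 were in the promoter table, and H2-Ab1 and Ciita were not. H2-Aa lay at chr17:34287824-34288073 on the minus strand, H2-Eb1 at chr17:34305617-34305866 on the plus strand, Cxcl9 at chr5:92328080-92328329 on the minus strand and Irf1 at chr11:53769764-53770013 on the plus strand (the first of 2 starts listed).
H2-Aa: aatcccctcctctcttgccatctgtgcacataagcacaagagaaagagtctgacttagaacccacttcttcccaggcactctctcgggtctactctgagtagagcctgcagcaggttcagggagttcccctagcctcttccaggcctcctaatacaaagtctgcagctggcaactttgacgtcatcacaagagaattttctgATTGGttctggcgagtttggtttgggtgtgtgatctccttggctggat
H2-Eb1: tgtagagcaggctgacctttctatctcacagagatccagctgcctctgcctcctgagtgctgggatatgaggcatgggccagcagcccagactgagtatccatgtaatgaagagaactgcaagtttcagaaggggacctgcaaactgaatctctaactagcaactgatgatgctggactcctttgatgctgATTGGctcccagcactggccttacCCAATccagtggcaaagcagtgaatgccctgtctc
Cxcl9: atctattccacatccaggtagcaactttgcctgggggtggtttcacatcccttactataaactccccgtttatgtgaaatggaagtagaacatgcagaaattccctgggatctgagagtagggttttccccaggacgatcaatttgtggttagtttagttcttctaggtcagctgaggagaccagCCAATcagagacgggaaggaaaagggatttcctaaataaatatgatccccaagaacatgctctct
Irf1: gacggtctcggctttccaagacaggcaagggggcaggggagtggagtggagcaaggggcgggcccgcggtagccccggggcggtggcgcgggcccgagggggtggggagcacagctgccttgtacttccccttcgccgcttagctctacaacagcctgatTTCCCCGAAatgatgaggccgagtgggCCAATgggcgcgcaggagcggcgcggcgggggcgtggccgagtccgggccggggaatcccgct
H2-Aa held 1 CCAAT match, which began 48 bases before the start, and H2-Eb1 held 2, which began 59 and 35 bases before it. In Cxcl9 the single CCAAT match began 65 bases before the start, and no TTCNNNGAA was present in the window. Irf1 held a CCAAT match 63 bases and a TTCNNNGAA match 90 bases before the start. Of all 32851 promoters in the table, 33.8% held a CCAAT and 7.02% a TTCNNNGAA on either strand, so these matches are descriptions of the sequence and not of binding.

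Of 25 listed interferon gamma response genes 23 were tested. Ido1 and Ciita were among those tested only because of their level in the knockouts. Of the 23, 18 rose and none fell, against 4.32% called higher over all genes. The median log2 fold change was 2.32, and 22 had Kmt2c KO libraries that all lay above the WT libraries, against 12.5% over all genes. Irf1, a transcription factor of the first response to interferon gamma, stood at 60.6, 108 and 127 CPM in WT, 368, 301 and 389 CPM in Kmt2c KO and 126, 319 and 150.1 CPM in Kmt2d KO. Kmt2c KO lay above WT without overlap (log2 fold change 1.85 ± 0.33 (SE), adjusted p = 0.00487). Cxcl9, a chemokine for T cells, stood at 38.6, 62.9 and 437 CPM in WT, 1549, 2375 and 2854 CPM in Kmt2c KO and 406, 3544 and 213 CPM in Kmt2d KO. WT library 3 was above the other WT libraries, and the highest value was that of Kmt2d KO library 2 (log2 fold change 3.63 ± 0.90 (SE), adjusted p = 0.0275 for Kmt2c KO). This call was lost under DESeq2, without WT library 1 or 2 and without Kmt2c KO library 2 or 3. Pooled, Cxcl9 was higher in endothelial cells of Kmt2c KO tumours (2264 CPM) than in Ptprc-positive cells of the same tumours (544 CPM). The same order held in Kmt2d KO (1061 and 360 CPM), and in WT the levels were near each other (202 and 188 CPM). Ido1, a tryptophan-degrading enzyme, had 2 UMIs over the WT and 127 over the Kmt2c KO libraries, a ratio of 135 (exact 95% counting interval 36.7 to 1129, adjusted p = 0.0125), with 0, 264 and 0 CPM in Kmt2d KO. Socs1, a feedback inhibitor of the pathway, rose by 3.61 ± 0.57 (adjusted p = 0.00247), Irf8 by 2.32 ± 0.40 (adjusted p = 0.00415) and the checkpoint ligand gene Cd274 by 2.69 ± 0.72 (adjusted p = 0.0359). Guanylate-binding and interferon-inducible GTPase genes were also called (Gbp2, Gbp3, Gbp5, Gbp9, Irgm1, Irgm2, Igtp and Iigp1), although reads of near-identical members may be split between them.

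The type I interferon response shares most of its targets with the interferon gamma response. It gave 19 higher and none lower of 32 tested, with a median of 1.56 and 24 genes higher without overlap. Over all genes 4.32% were called higher and 12.5% lay higher without overlap. Bst2, the membrane tether of budding viruses, stood at 664, 541 and 842 CPM in WT, 2055, 2295 and 2093 CPM in Kmt2c KO and 885, 2158 and 999 CPM in Kmt2d KO. All Kmt2c KO libraries and Kmt2d KO library 2 were above 2000 CPM and all others below 1000 CPM (log2 fold change 1.70 ± 0.29 (SE), adjusted p = 0.00456). Isg15, a ubiquitin-like modifier, rose by 2.1 ± 0.52 (adjusted p = 0.0272). Ifit3 was not called, with 11, 2.52 and 69.5 CPM in WT and 80.6, 64.3 and 109.5 CPM in Kmt2c KO (adjusted p = 0.316). The 21 MHC class I presentation genes gave 14 higher and none lower, with a smaller median of 0.98, against 4.32% called higher over all genes. H2-K1, a classical class I heavy chain, stood at 2778, 3094 and 3342 CPM in WT, 5193, 5654 and 5719.7 CPM in Kmt2c KO and 3412, 4669.9 and 3798 CPM in Kmt2d KO, and WT and Kmt2c KO did not overlap (log2 fold change 0.89 ± 0.17 (SE), adjusted p = 0.00724). The shared light chain gene B2m rose by 0.91 ± 0.23 (adjusted p = 0.0319) and the peptide transporter gene Tap1 by 1.82 ± 0.32 (adjusted p = 0.00469). H2-Q6 gave the smallest adjusted p in the list (log2 fold change 1.79 ± 0.20 (SE), adjusted p = 0.000236), but its reads can be shared with its near-copy H2-Q7.

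**Figure D2:**
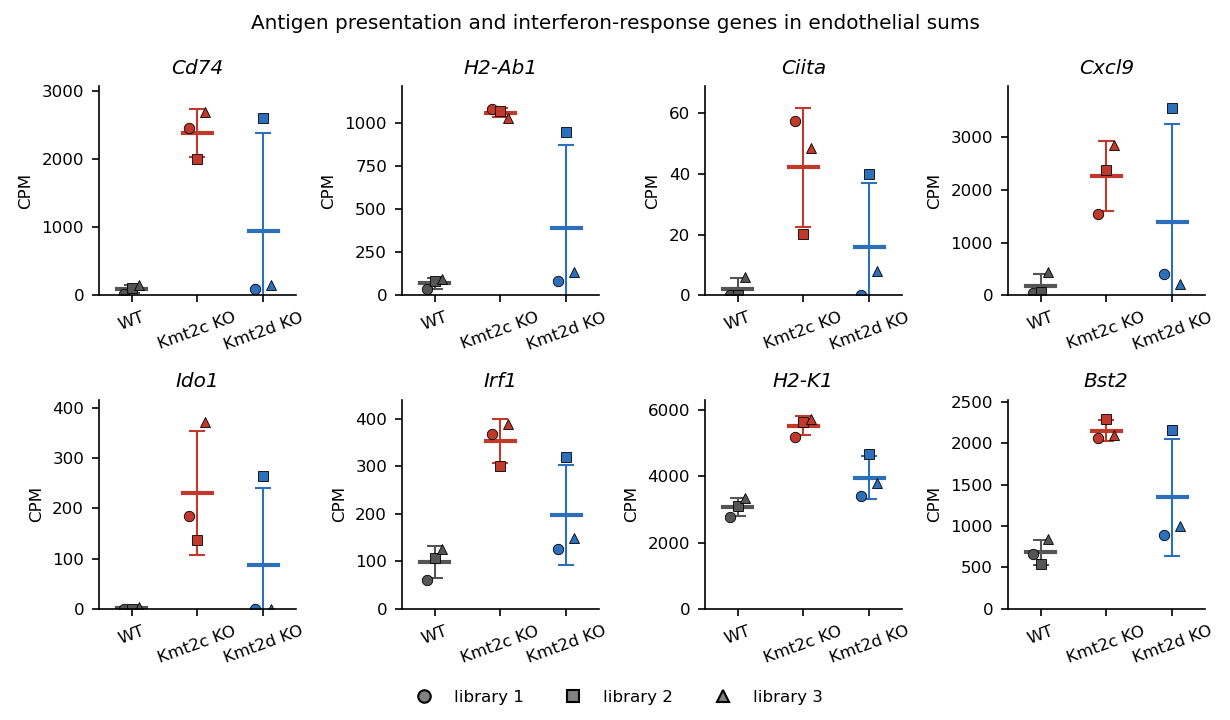
Levels (CPM of summed endothelial UMIs) of 8 antigen-presentation and interferon-response genes, 1 point per library, bars at group means and error bars of 1 SD, cut at 0. The 3 Kmt2c KO libraries lie above the 3 WT libraries in each panel, and Kmt2d KO library 2 lies above the other Kmt2d KO libraries.

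Among chemokines and leukocyte adhesion genes, 3 of 11 tested rose and none fell (median 1.32), against 4.32% called higher over all genes. Besides Cxcl9 these were Ccl2, a chemokine for monocytes, at 46.8, 35.2 and 10.2 CPM in WT, 207, 450.1 and 122 CPM in Kmt2c KO and 73.5, 105 and 60.0 CPM in Kmt2d KO (log2 fold change 3.25 ± 0.47 (SE), adjusted p = 0.00175), and the macrophage growth factor gene Csf1, which rose by 2.19 ± 0.53 (adjusted p = 0.0253). Every library of either knockout lay above every WT library for Ccl2 and Csf1. Ccl2 was tested only because of its level in the knockouts, so its call is a description. The adhesion molecule genes were not called. Vcam1 stood at 2.76, 12.6 and 22.5 CPM in WT and 74.8, 40.2 and 146 CPM in Kmt2c KO (log2 fold change 2.62 ± 0.84 (SE), adjusted p = 0.0769), and Icam1 at 44.1, 47.8 and 20.4 and 97.9, 64.3 and 109.5 CPM (log2 fold change 1.32 ± 0.46 (SE), adjusted p = 0.108). Among 11 NF-kB targets tested, Tnfaip2 (1.40 ± 0.32, adjusted p = 0.0192) and Ccl2 were called higher and none lower.

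Some capillary genes were lower. Of the 12 listed, 11 were tested, 4 fell (Car4, Cd36, Aqp1 and Btnl9), 7 were not called and none rose, against 1.71% called lower over all genes. The median was -0.61, and 5 genes lay below and 1 above WT without overlap, against 15.4% below and 12.5% above over all genes. Aqp1, the water channel of continuous capillaries, stood at 1717, 1856 and 1614 CPM in WT, 771, 462 and 353 CPM in Kmt2c KO and 1295, 1032 and 1473 CPM in Kmt2d KO. The WT libraries lay above all the others, and the Kmt2c KO libraries below all the others (log2 fold change -1.66 ± 0.24 (SE), adjusted p = 0.00155 for Kmt2c KO). Cd36 stood at 609, 903 and 895 CPM in WT, 368, 241 and 365 CPM in Kmt2c KO and 549, 503 and 808 CPM in Kmt2d KO, and WT and Kmt2c KO did not overlap (log2 fold change -1.27 ± 0.24 (SE), adjusted p = 0.00678). Car4, a membrane carbonic anhydrase, stood at 165, 375 and 276 CPM in WT and 167, 28.1 and 48.7 CPM in Kmt2c KO, where library 1 reached the lowest WT library (log2 fold change -1.77 ± 0.47 (SE), adjusted p = 0.0345). Btnl9, a butyrophilin-like gene, fell by 1.34 ± 0.33 on the log2 scale (adjusted p = 0.0281). Gpihbp1 stood at 3031 ± 265 CPM (SD, n = 3) in WT and 2599 ± 215 CPM in Kmt2c KO, and Rgcc, a cell cycle regulator enriched in capillaries, at 977 ± 172 and 981 ± 52.5 CPM. Neither was called. Fabp4 was at 8157, 11248 and 11382 CPM in WT and 6327, 6811 and 6267 CPM in Kmt2c KO, without overlap but not called (log2 fold change -0.62 ± 0.21 (SE), adjusted p = 0.105). The related carrier gene Fabp5 lay above WT, at 708, 785 and 1091 CPM in WT and 1267, 1708 and 1193 CPM in Kmt2c KO, also not called (log2 fold change 0.74 ± 0.29 (SE), adjusted p = 0.153). Aqp7 had no UMI in the Kmt2c KO libraries, which allows up to 5.11 CPM over the group, and was too low to test.

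Among related genes, Cavin2, a structural protein of caveolae, was the single called member of the 7 caveolar genes, at 595, 644 and 556 CPM in WT, 242, 169 and 134 CPM in Kmt2c KO and 500.5, 264 and 508 CPM in Kmt2d KO. Kmt2c KO lay below all the other libraries (log2 fold change -1.67 ± 0.25 (SE), adjusted p = 0.00229). Thbd, the anticoagulant thrombomodulin, was the single called gene of 5 flow-responsive genes (-1.62 ± 0.44, adjusted p = 0.0382). Of the 28 further endothelial genes, Cd34 (-0.73 ± 0.20, adjusted p = 0.0416) and Tspan7 (-0.83 ± 0.21, adjusted p = 0.0298) were lower and none higher.

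Tip genes divided between rises and a fall. Of 20 listed, 19 were tested, 8 rose and 1 fell, with a median of 0.68. Over all genes 4.32% were called higher and 1.71% lower. Angpt2, which loosens vessels for sprouting, stood at 127, 174 and 123 CPM in WT, 253, 478 and 559.8 CPM in Kmt2c KO and 185, 409 and 205 CPM in Kmt2d KO. Every knockout library lay above every WT library (log2 fold change 1.66 ± 0.32 (SE), adjusted p = 0.00801 for Kmt2c KO). Apln, the apelin peptide, stood at 331, 365 and 200.2 CPM in WT, 351, 1021 and 779 CPM in Kmt2c KO and 623, 768 and 557 CPM in Kmt2d KO, with Kmt2c KO library 1 among the WT libraries (log2 fold change 1.34 ± 0.31 (SE), adjusted p = 0.0207). This call was lost without any 1 of the WT libraries and without Kmt2c KO library 2 or 3. It was also lost without cells holding at least 2 markers of other cell types and without the 5% of cells with most UMIs. The apelin receptor gene Aplnr, of venous and sprouting endothelium, went the other way, at 361, 186 and 296 CPM in WT, 40.3, 16.1 and 0 CPM in Kmt2c KO and 255, 64.8 and 246 CPM in Kmt2d KO. Kmt2c KO lay below all the other libraries (log2 fold change -3.82 ± 0.58 (SE), adjusted p = 0.00229). Pdgfb, which recruits pericytes, rose by 0.91 ± 0.21 (adjusted p = 0.0183), the basement membrane protein gene Nid2 by 1.01 ± 0.23 (adjusted p = 0.0183) and the urokinase receptor gene Plaur by 1.02 ± 0.24 (adjusted p = 0.0226). Kcne3, Trp53i11 and Mcam rose by 1.29, 0.75 and 0.75 (adjusted p = 0.0462, 0.0271 and 0.0225). Esm1, a classical tip marker, was not called, at 185, 234 and 212 CPM in WT and 97.9, 486 and 371 CPM in Kmt2c KO, where library 1 was lowest of all 6 (log2 fold change 0.68 ± 0.52 (SE), adjusted p = 0.501). The Notch ligand gene Dll4 was also not called (299 ± 29.0 and 404 ± 43.9 CPM, SD, n = 3). In Kmt2c KO library 2, which was highest of the 6 for Apln and Esm1, mural and fibroblast markers were also highest.

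Arterial genes gave 1 call of 10 tested in Kmt2c KO, a fall, against 1.71% called lower over all genes. Their median was -0.66. Fbln5 stood at 287, 252 and 264 CPM in WT, 127, 88.4 and 54.8 CPM in Kmt2c KO and 101, 29.9 and 128 CPM in Kmt2d KO. WT lay above all the knockout libraries (log2 fold change -1.51 ± 0.33 (SE), adjusted p = 0.0147 for Kmt2c KO). Gja4 stood at 176, 62.9 and 168 CPM in WT and 74.8, 48.2 and 48.7 CPM in Kmt2c KO, which overlapped (log2 fold change -1.21 ± 0.43 (SE), adjusted p = 0.110). Efnb2, the arterial ephrin, was at 143, 259 and 182 and 248, 149 and 73.0 CPM and was not called. Of 7 venous genes tested none was called by edgeR in Kmt2c KO, and their median was 0.04. Lrg1, a glycoprotein of venules, had 353, 568 and 325 CPM in WT and 391.5, 197 and 109.5 CPM in Kmt2c KO (log2 fold change -0.78 ± 0.34 (SE), adjusted p = 0.199), and Ephb4, the venous receptor of Efnb2, 163, 111 and 96.0 and 109, 68.3 and 85.2 CPM (log2 fold change -0.45 ± 0.31 (SE), adjusted p = 0.443).

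**Figure D3:**
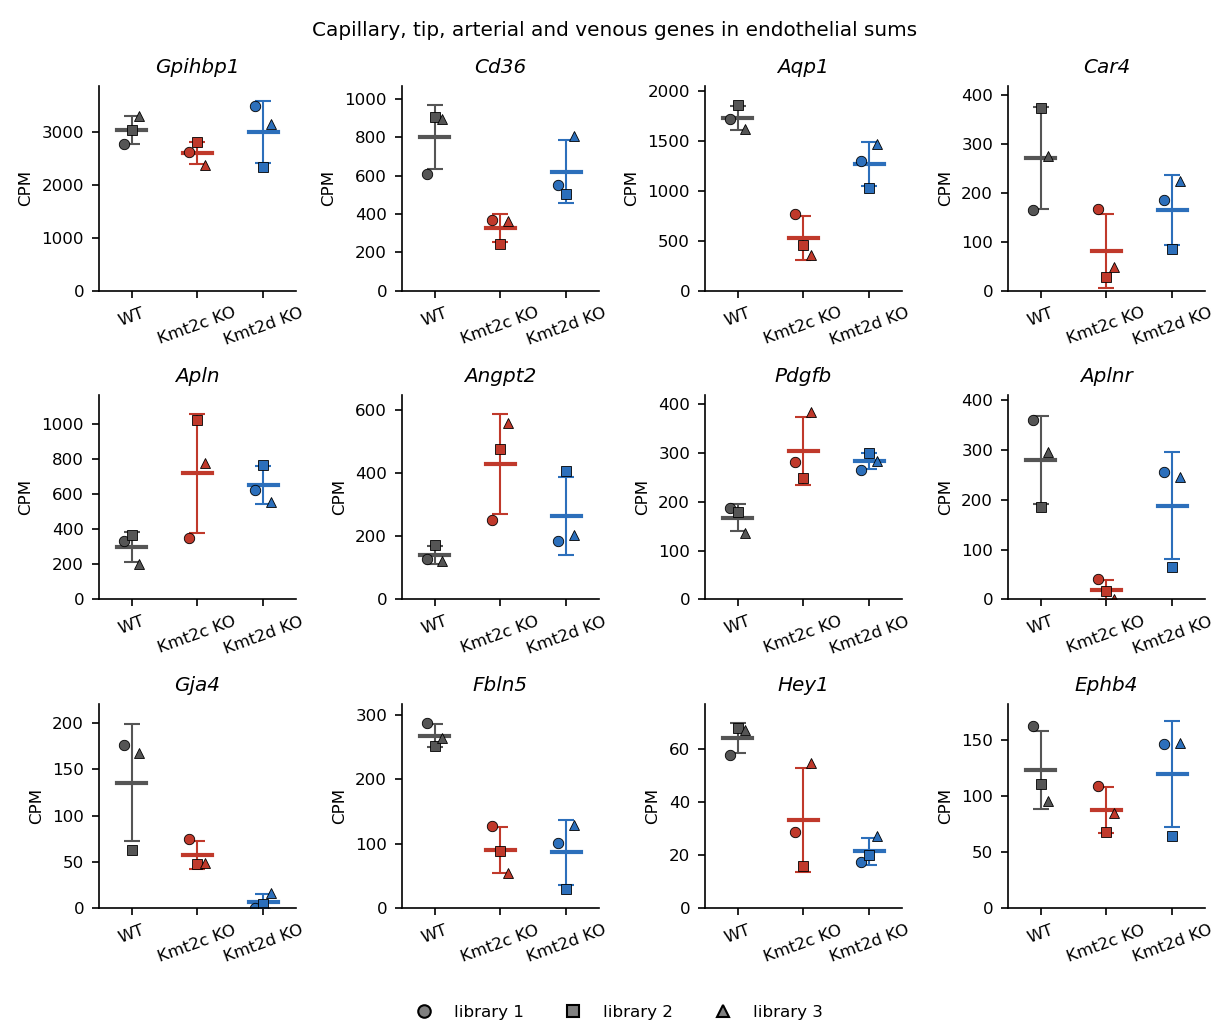
Levels (CPM of summed endothelial UMIs) of 12 capillary, tip, arterial and venous genes, 1 point per library, bars at group means and error bars of 1 SD, cut at 0. Aqp1 falls from 1614 to 1856 CPM in WT to 353 to 771 CPM in Kmt2c KO, and Gja4 from 62.9 to 176 CPM in WT to 0 to 16.4 CPM in Kmt2d KO.

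Lymphatic markers were sparse. Lyve1, the hyaluronan receptor of lymphatic vessels, had 2 UMIs in the WT libraries, 40 in the Kmt2c KO libraries and none in the Kmt2d KO libraries (up to 3.52 CPM over that group). The ratio of Kmt2c KO to WT was 42.6 in pooled CPM (exact 95% counting interval 11 to 364, adjusted p = 0.00413). Lyve1 could be tested only because of its level in Kmt2c KO, so this call is a description. Prox1, the transcription factor that defines lymphatic endothelium, stood at 0, 10.1 and 0, 40.3, 8.04 and 18.3 and 3.50, 0 and 0 CPM in the 3 groups and was too low to test. Cells with at least 2 of Prox1, Lyve1, Pdpn, Flt4, Ccl21a, Reln and Mmrn1 numbered 11 of 405, with 1 from WT tumours, 8 from Kmt2c KO tumours and 2 from Kmt2d KO tumours. Thinned to 1000 UMIs, with the mean of 100 draws, they numbered 0.94 in WT library 2, 1, 1.55 and 0.99 in the Kmt2c KO libraries and 0.31 in Kmt2d KO library 1, so that Kmt2c KO library 2 went from 5 such cells to 1.55. Macrophage markers, which include cells that can carry Lyve1, were at 73.0 to 76.3 CPM in Kmt2c KO against at most 49.6 CPM in WT, and their part in the Lyve1 result was not tested.

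Growth factor genes gave few calls, beside 4.32% of all genes called higher. Of 15 VEGF, angiopoietin and Notch genes tested, Pgf and Angpt2 were higher and none lower, and Kdr and Flt1 of this list were part of the selection rule. Pgf, the placental growth factor, stood at 27.6, 60.4 and 106 CPM in WT, 305, 369.7 and 268 CPM in Kmt2c KO and 105, 269 and 156 CPM in Kmt2d KO, and Kmt2c KO lay above WT without overlap (log2 fold change 2.28 ± 0.38 (SE), adjusted p = 0.00394). Among 14 basement membrane genes the laminin chain gene Lamb1 (0.83 ± 0.23, adjusted p = 0.0437) and Nid2 were higher, whereas the collagen IV chain gene Col4a1 was at 4956 ± 668 CPM (SD, n = 3) in WT and 4795 ± 138 CPM in Kmt2c KO and was not called. Of 13 hypoxia and glycolysis genes tested 2 rose. These were Pfkfb3, a glycolytic regulator, at 27.6, 27.7 and 28.6 CPM in WT, 219, 177 and 286 CPM in Kmt2c KO and 52.5, 294 and 57.3 CPM in Kmt2d KO (log2 fold change 3.03 ± 0.54 (SE), adjusted p = 0.00487), and the glycolytic enzyme gene Aldoa (0.85 ± 0.23, adjusted p = 0.0406). Pgf and Pfkfb3 were tested only because of their level in the knockouts, so their calls are descriptions.

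No gene was called by edgeR among 8 BMP and TGF-beta genes, 10 junction genes and 16 cell cycle genes tested. The proliferation marker Mki67 stood at 121, 70.4 and 69.5 CPM in WT and 86.4, 20.1 and 48.7 CPM in Kmt2c KO, and Cldn5, the claudin of the endothelial barrier, at 1378, 1456 and 1069 and 719.7, 900.1 and 876 CPM, without overlap. Cldn5 and Cdh5 of the junction list were part of the selection rule, so their values are a description. Of 13 immediate early and heat shock genes Atf3 was higher (2.31 ± 0.55, adjusted p = 0.0227) and Hspa1a lower (-1.94 ± 0.47, adjusted p = 0.0255). Of 80 cytosolic ribosomal protein genes tested, 9 were called lower and none higher, with a median of -0.40 and 61 lower without overlap. Over all genes 1.71% were called lower and 15.4% lay lower without overlap. The same list had a median of -0.35 and 57 genes lower without overlap in Kmt2d KO, against 8.44% over all genes. That comparison shares the WT libraries.

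**Figure D4:**
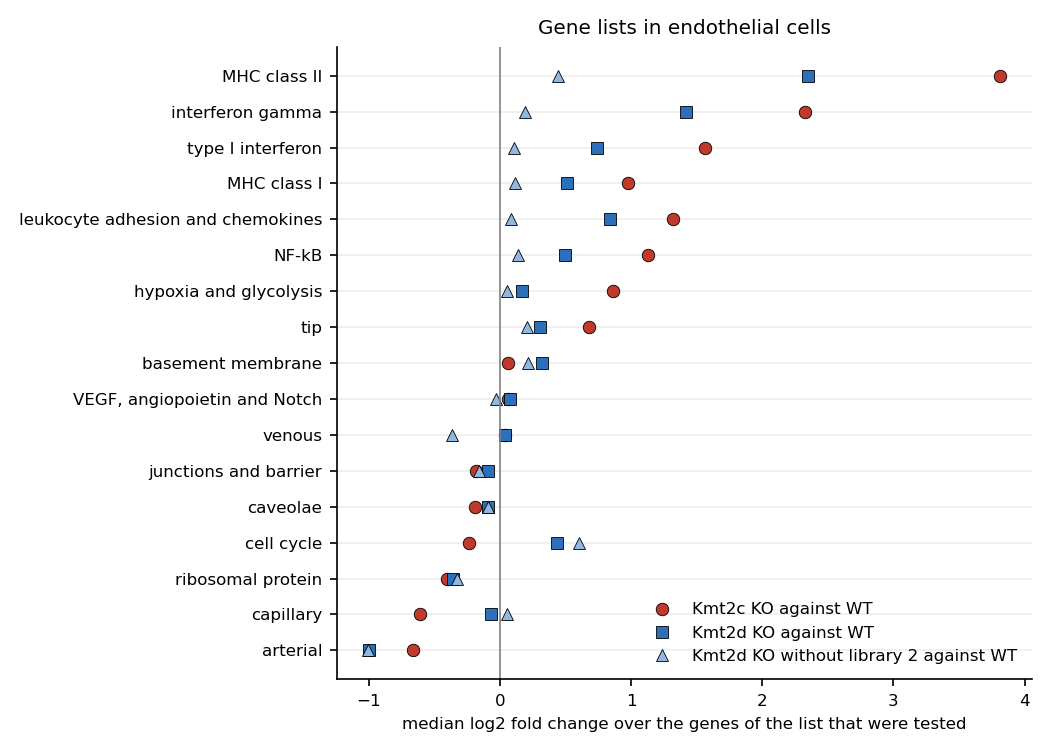
Median log2 fold change against WT of 17 gene lists in endothelial sums, for Kmt2c KO, Kmt2d KO and Kmt2d KO without library 2. The MHC class II list lies at 3.82 for Kmt2c KO, 2.35 for Kmt2d KO and 0.45 for Kmt2d KO without library 2, and the arterial list at -0.66, -1.0 and -1.0.

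Beyond the lists, the 10 largest called rises without overlap were Ido1, Lyve1, C2, Ubd, Cd74, Serping1, H2-Ab1, Ciita, Batf2 and H2-Eb1. Ubd, a ubiquitin-like protein that cytokines induce, stood at 16.5, 12.6 and 69.5 CPM in WT, 697, 687 and 1399.5 CPM in Kmt2c KO and 133, 1415 and 43.7 CPM in Kmt2d KO (log2 fold change 4.74 ± 0.96 (SE), adjusted p = 0.0105). Serping1, the inhibitor of complement C1, stood at 5.51, 45.3 and 36.8 CPM in WT and 489, 583 and 876 CPM in Kmt2c KO (log2 fold change 4.45 ± 0.98 (SE), adjusted p = 0.0152). The complement gene C2 had 2 UMIs in WT and 36 in Kmt2c KO, a ratio of 38.3 (exact 95% counting interval 9.87 to 329, adjusted p = 0.00724). Like Lyve1, Ido1, Ciita and Cd74, the genes C2, Ubd and Serping1 could be tested only because of their level in the knockouts. Their calls are descriptions. Batf2, an interferon-induced transcription factor, rose by 3.76 ± 0.60 (adjusted p = 0.00288). For Ubd, Serping1, C2 and Batf2, Kmt2d KO library 2 was the highest of the Kmt2d KO libraries.

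The 10 largest called falls without overlap were Gm525, Aplnr, Apoe, Enpp2, Ccdc85a, Slc39a10, Olfml2a, Tmem255b, Tsc22d3 and Tspan13. Tspan13, a tetraspanin, stood at 281, 246 and 188 CPM in WT, 40.3, 52.2 and 54.8 CPM in Kmt2c KO and 175, 135 and 166 CPM in Kmt2d KO. The Kmt2c KO libraries were lowest, the WT libraries highest, and no groups overlapped (log2 fold change -2.20 ± 0.25 (SE), adjusted p = 0.000285). Apoe, a lipid carrier, stood at 135, 189 and 253 CPM in WT, 51.8, 0 and 12.2 CPM in Kmt2c KO and 70.0, 39.9 and 49.1 CPM in Kmt2d KO (log2 fold change -3.28 ± 0.53 (SE), adjusted p = 0.00312). Enpp2, which makes lysophosphatidic acid, fell by 2.61 ± 0.56 on the log2 scale (adjusted p = 0.0138), and the zinc transporter gene Slc39a10 by 2.33 ± 0.43 (adjusted p = 0.00700). Tsc22d3, a target of glucocorticoids, fell by 2.20 ± 0.50 (adjusted p = 0.0179). Gm525 had 72 UMIs in WT and 1 in Kmt2c KO, a ratio of WT to Kmt2c KO of 33.8 (exact 95% counting interval 5.88 to 1354). It could be tested only because of its level in the other groups, so its call is a description. The values of the knocked-out genes in the host cells were not called, with Kmt2c at 46.8, 35.2 and 38.8 CPM in WT and 51.8, 36.2 and 48.7 CPM in Kmt2c KO, and Kmt2d at 30.3, 35.2 and 24.5 CPM in WT and 42.0, 84.7 and 43.7 CPM in Kmt2d KO. In tumour cells Kmt2c was at 39.6 to 51.9 CPM and Kmt2d at 14.4 to 30.4 CPM over all libraries. Kmt2d was higher in every tumour cell sum labelled Kmt2d KO, at 24.6, 30.4 and 23.3 CPM, than in WT, at 20.4, 18.7 and 14.4 CPM. Kmt2c was at 39.7, 39.6 and 51.9 CPM in Kmt2c KO and at 45.7, 47.1 and 46.2 CPM in WT. The genotype is therefore as labelled and was not checked by these counts, which are per gene and do not show an edit.

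In Kmt2d KO tumours the endothelium differed from WT in few called genes. Of 5319 tested, 2 (0.0376%) were called, Adamts7 higher and Gja4 lower (0.0188% each, both without overlap), while 511 (9.61%) had an unadjusted p below 0.05 and DESeq2 called 14. Without overlap, 7.05% of genes lay higher and 8.44% lower, and the median over all genes was 0.02. Gja4, the connexin 37 of arterial endothelium, stood at 176, 62.9 and 168 CPM in the WT, 74.8, 48.2 and 48.7 CPM in the Kmt2c KO and 0, 4.98 and 16.4 CPM in the Kmt2d KO libraries. The Kmt2d KO libraries were lowest and did not overlap the others, whereas the Kmt2c KO libraries overlapped WT (log2 fold change -3.99 ± 0.57 (SE), adjusted p = 0.0162 for Kmt2d KO). Adamts7, a secreted metalloproteinase, stood at 52.4, 50.3 and 57.2 CPM in WT, 144, 141 and 140.0 CPM in Kmt2c KO and 136, 159 and 123 CPM in Kmt2d KO. Both knockout groups lay above WT (log2 fold change 1.37 ± 0.22 (SE), adjusted p = 0.0272 for Kmt2d KO and log2 fold change 1.45 ± 0.23 (SE), adjusted p = 0.00247 for Kmt2c KO). DESeq2 also called Adamts7, and gave no adjusted p for Gja4. Both calls were lost without WT library 1 or 3 and with only the 2 groups in the fit. They were also lost without cells holding at least 2 markers of other cell types. That of Adamts7 was lost also without WT library 2 or any 1 of the Kmt2c KO libraries. A mitochondrial limit of 10% and leaving out the 5% of cells with most UMIs lost it too.

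Of the arterial list 1 gene of 10 tested was called lower in Kmt2d KO, Gja4. The median of the list was -1.0 in Kmt2d KO, against 0.02 over all genes. Of the 10, 6 had Kmt2d KO libraries that all lay below the WT libraries, against 8.44% over all genes. Gja4 and Gja5 passed the low-count limit through their level in the other groups, so the median and this count are descriptions. Hey1, a Notch target, stood at 57.9, 67.9 and 67.4 CPM in WT, 28.8, 16.1 and 54.8 CPM in Kmt2c KO and 17.5, 19.9 and 27.3 CPM in Kmt2d KO, without overlap between WT and either knockout (log2 fold change -1.52 ± 0.36 (SE), adjusted p = 0.161 for Kmt2d KO). Fbln5 had no overlap either (log2 fold change -1.53 ± 0.31 (SE), adjusted p = 0.0802), nor did Gja5, the connexin 40 gene, at 41.3, 5.03 and 61.3 CPM in WT and 0, 4.98 and 0 CPM in Kmt2d KO (log2 fold change -4.54 ± 1.36 (SE), adjusted p = 0.272). Sema3g, a semaphorin of arteries, stood at 88.2, 62.9 and 135 CPM in WT and 17.5, 39.9 and 54.6 CPM in Kmt2d KO (log2 fold change -1.32 ± 0.40 (SE), adjusted p = 0.272). Stmn2 and Bmx, too low to test, had no UMI in the Kmt2d KO libraries (up to 3.52 CPM over the group) and 24.8, 7.55 and 44.9 and 5.51, 2.52 and 2.04 CPM in WT. Nrp1 and Dll4, which are also expressed outside arteries, were at 284 ± 47.4 and 350.2 ± 68.5 CPM in Kmt2d KO (SD, n = 3) and 252 ± 41.8 and 299 ± 29.0 CPM in WT.

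In Kmt2d KO the median was -0.07 over capillary, 0.04 over venous and 0.31 over tip genes, with none called by edgeR, though 5 tip genes lay above WT without overlap. Apln was 1 of them (log2 fold change 1.15 ± 0.31 (SE), adjusted p = 0.207). Aqp1 stood below WT without overlap (log2 fold change -0.43 ± 0.22 (SE), adjusted p = 0.561), and Gpihbp1 was at 2994 ± 588 CPM (SD, n = 3). Of the 4 lymphatic genes tested none was called and none lay apart from WT. Their median of -2.85 includes fitted values of Lyve1 and Ccl21a, which had no UMI in the Kmt2d KO libraries, and Ccl21a was found in 1 WT library only. Nts, a neuropeptide gene, stood at 19.3, 179 and 51.1 CPM in WT and 3.50, 24.9 and 0 CPM in Kmt2d KO, and without Kmt2d KO library 2 it was called lower (log2 fold change -5.44 ± 1.04 (SE), adjusted p = 0.0136). The genes of lowest p that were not called were H2-Q6, Gm11127, Rps27, Gm8909, Gfod1, Fbln5, Tsc22d1, Entpd1, Tnc and Apoe, of which H2-Q6, at 444, 573 and 478 CPM in Kmt2d KO against 215, 211 and 274 CPM in WT, came nearest (log2 fold change 1.10 ± 0.20 (SE), adjusted p = 0.0645).

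Of the Kmt2d KO libraries, library 2 was highest for Cd74, H2-K1, Irf1 and Bst2, and the medians of their lists were lower without it. The median log2 fold change was 2.35 for class II, 1.42 for interferon gamma, 0.74 for type I interferon and 0.51 for class I genes, with none called by edgeR. All Kmt2d KO libraries lay above WT for 8 of 21 class I, 4 of 32 type I interferon, 3 of 23 interferon gamma and none of 6 class II genes, against 7.05% over all genes. Without Kmt2d KO library 2 the medians were 0.45, 0.19, 0.11 and 0.11, with H2-Q6 the 1 gene called in the class I list. In that setting 16 genes were called of 6128 (0.261%), 7 higher (0.114%) and 9 lower (0.147%), and the arterial median was still -1.0, with Gja4 and Fbln5 lower. The tumour cells of library 2 stood apart in the same way, where Bst2 reached 339, 744 and 339 CPM and Ly6a, an interferon-induced surface protein, 118, 546 and 106 CPM over the Kmt2d KO group. Library 2 also had the fewest endothelial cells of the group (32), and its macrophage markers (34.9 CPM) lay within the range of the WT libraries. Its mural markers (219 CPM) lay above WT (99.2 to 170 CPM) and above the other Kmt2d KO libraries (80.5 and 112 CPM). Its fibroblast markers (69.8 CPM) lay above WT (4.09 to 12.6 CPM) and between the other Kmt2d KO libraries (24.5 and 92.8 CPM). The part of these markers in the values of library 2 was not tested.

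Set directly against each other, the knockouts gave no call by edgeR among 5319 genes, while 536 (10.1%) had an unadjusted p below 0.05 and DESeq2 called 14. Without overlap, 7.22% of genes lay higher and 5.09% lower in Kmt2d KO. Without Kmt2d KO library 2, 318 of 6128 genes (5.19%) were called, 85 (1.39%) higher and 233 (3.8%) lower in Kmt2d KO than in Kmt2c KO. Among them 5 capillary genes were higher (Car4, Cd36, Fabp4, Aqp1 and Btnl9) and none lower. Of the interferon gamma genes 20 were lower, of the class I genes 15, of the type I interferon genes 17 and of the class II genes 5, with none higher. Fcer1g, the 1 macrophage marker tested, was also called lower (log2 fold change -3.05). The part of macrophage transcripts in these lists was not tested. Tip genes went both ways, with Aplnr and Fscn1, an actin-bundling protein gene, higher and Esm1, Angpt2, Unc5b and Igfbp3 lower. Among arterial genes Gja4 and Unc5b were lower in Kmt2d KO. The choice of this library was made after its values were seen, and the difference between the knockouts with all libraries was not called, so the genotypes were not shown to differ.

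Whether the endothelium differed from WT by another size than tumour cells of the same tumours was tested with the cell class by genotype term. In Kmt2c KO, 230 of 5060 genes (4.55%) were called, 119 with a larger and 111 with a smaller log2 fold change in endothelial cells. Interferon genes rose in both classes. In tumour cells, where 8.6% of 13733 genes were called higher, 32 of 33 type I interferon genes were higher (median 2.19) and 20 of 23 interferon gamma genes (median 3.30), and 9 and 7 genes of these lists had a smaller endothelial than tumour difference. Bst2 rose by 1.70 ± 0.29 in endothelial and 2.70 ± 0.28 in tumour cells (difference -0.99, adjusted p = 0.00116), and Ly6a by 2.43 ± 0.61 and 4.54 ± 0.62 (difference -2.04, adjusted p = 0.000241). Socs1 was the 1 interferon gamma gene with a larger endothelial difference. The class II genes gave no call of the difference, and 6 of 9 tested rose in tumour cells (median 3.0), from a low level. In the same tumour cell sums 4 of 9 macrophage markers tested were also called higher (C1qb, Aif1, Fcer1g and Tyrobp, median 1.21). Their part in the class II values was not tested.

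Genes of the vessel lists differed between the classes in a few cases. Angpt2 rose in endothelial cells and stood at 20.1, 21.7 and 17.4 CPM in tumour cells of WT and 19.3, 16.4 and 17.4 CPM of Kmt2c KO (difference 1.78, adjusted p = 0.0107). Aqp1 fell in endothelial cells and stood at 143, 128 and 142 and 128, 154 and 159 CPM in tumour cells (difference -1.81, adjusted p = 0.000294). Ccl2, which tumour cells of every library expressed, stood there at 252, 316 and 184 and 205, 334 and 367 CPM, without the rise seen in endothelium (difference 2.94, adjusted p = 0.00081). Csf1 stood at 121, 108 and 121 and 135, 147 and 145 CPM in tumour cells (difference 1.91, adjusted p = 0.0193). In Kmt2d KO 2 genes (0.0395%) were called, Adm with a larger and Ly6c2 with a smaller endothelial difference (0.0198% each), while 500 (9.88%) had an unadjusted p below 0.05.

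**Figure D5:**
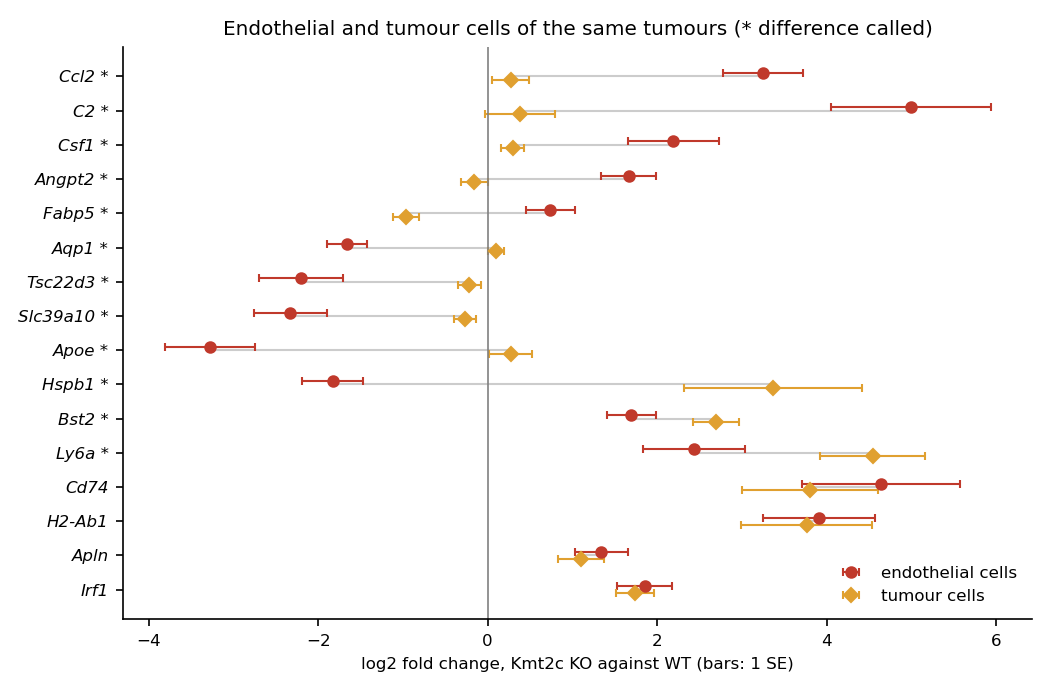
Log2 fold change of Kmt2c KO against WT for 16 genes in endothelial cells and in tumour cells of the same libraries, with error bars of 1 SE and an asterisk where the difference between the classes was called. Ccl2 and Angpt2 lie higher and Aqp1 lies lower in endothelial cells, and Bst2 rises in both classes.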

How the data were processed

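Whole-tumour suspensions of 3 WT, 3 Kmt2c KO and 3 Kmt2d KO 168FARN tumours were profiled as 5′ single-cell libraries. The authors ran Cell Ranger (7.0.1 and mm10 in the submitters' processing notes) and deposited 1 matrix of UMI counts per gene and barcode, not normalized. A barcode's suffix gave its library, and the letter of that library in the aggregation table (C, D or X) gave its group, by the names that the study's comparison sheets use. Cells with over 500 and under 7500 genes and under 15% mitochondrial UMIs were kept. Where a symbol occurred more than once, the row with more UMIs was used. No doublet caller was run, and cells with any H2BMc, Krt8 or Ptprc UMI were left out.

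UMIs were summed per library (at least 10 cells) and tested with edgeR 4.0.16 (filterByExpr, TMM, glmQLFit and glmQLFTest, R 4.3.3), with genotype as the only factor. The class difference had the library as a fixed term. Standard errors were derived from the fold change and its F statistic. DESeq2 1.42.0, other scalings, filters, marker numbers and left-out libraries were alternatives. Tested on simulated counts for 5377 genes, edgeR recovered 25.3% of 2-fold, 89.8% of 4-fold and 98.4% of 8-fold changes, with 5 false calls. The simulation gave every gene and library the same spread, so it cannot give these rates for the real libraries. Replicates differed beyond sampling noise (chi-square per degree of freedom 1.71 to 4.15), so none was counted as a repeat of another.

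Members and lists were chosen with earlier results of these data known. Genes named are rule markers, vessel and lymphatic list members, called members of other lists (or their most abundant members), genes the study names in endothelium, the knocked-out genes, and the 10 largest called rises and falls without overlap against WT (for fewer than 5 calls, the 10 lowest p). Other genes named (such as Mki67, Ifit3, Hspb1, Ly6c2 and Lyz2) were chosen after their values were seen. Another gene of the lists was tested and counted but is not reported here.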

Additional observations from a re-analysis of the deposited data

Results flagged for a closer look

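The difference from WT was of another size in endothelial than in tumour cells of the same libraries for 230 genes in Kmt2c KO and for 2 genes in Kmt2d KO, by edgeR's test of the cell class by genotype term with Benjamini-Hochberg adjustment. The values below are endothelial minus tumour differences of the log2 fold change.

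Among genes of the vessel lists in Kmt2c KO, the difference was 1.71 for the fatty-acid carrier Fabp5, -1.81 for Aqp1, -1.44 for Efnb2, 1.78 for Angpt2 and 0.94 for Lxn. Fabp5 stood at 708, 785 and 1091 CPM in endothelial cells of WT and 1267, 1708 and 1193 CPM of Kmt2c KO, and at 49.5, 44.9 and 54.7 and 30.3, 25.4 and 20.2 CPM in tumour cells, and the endothelial difference was not called. Efnb2 stood at 14.1, 11.1 and 9.03 and 24.8, 22.7 and 27.4 CPM in tumour cells, where it was higher in Kmt2c KO, and Lxn at 126, 181 and 198 and 127, 105 and 95.3 CPM.

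Among the genes with the largest endothelial changes, the difference was 5.01 for C2, -3.57 for Apoe, -2.10 for Slc39a10 and -2.08 for Tsc22d3. The value of C2 rests on 2 UMIs in endothelial cells of WT and is a description. C2 and Apoe were low in tumour cells, at 1.27, 0.951 and 1.18 and 4.72, 6.58 and 4.23 CPM in Kmt2c KO, whereas Slc39a10 stood there at 33.1, 34.9 and 33.5 CPM in WT and 30.4, 26.5 and 27.2 CPM in Kmt2c KO. Among the secreted factors it was 2.94 for Ccl2 and 1.91 for Csf1. Among interferon genes it was -2.04 for Ly6a and -0.99 for Bst2, which rose in both classes.

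The lowest value among the genes singled out was -5.04 for Hspb1, a small heat shock protein, which stood at 399.6, 503 and 529 CPM in endothelial cells of WT and 253, 92.4 and 48.7 CPM of Kmt2c KO. In tumour cells it was at 0.0724 to 2.79 CPM over all libraries, with 0.103, 0.0724 and 0.208 CPM in WT. These WT values rest on 1, 1 and 2 UMIs, against 81, 6 and 20 UMIs in tumour cells of Kmt2c KO, a ratio of Kmt2c KO to WT of 11.2 in pooled CPM (exact 95% counting interval 4.26 to 42.0). In Kmt2d KO the difference was 1.24 for Adm and -1.80 for Ly6c2, an interferon-induced surface protein whose reads can be shared with near-copies. Ly6c2 stood at 11, 12.2 and 6.54 CPM in tumour cells of WT and 14.6, 52.0 and 18.3 CPM of Kmt2d KO, with library 2 highest, and at 573, 568 and 615 and 220.5, 678 and 426 CPM in endothelial cells. No explanation of these differences was tested.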

How the results depend on the processing

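Calls per comparison moved with the low-count filter, the groups in the fit and single libraries. Without the filter, calls numbered 550 for Kmt2c KO against WT, 125 for Kmt2d KO against WT, 144 between the knockouts, and 379 and 87 for the difference between endothelial and tumour cells in Kmt2c KO and Kmt2d KO. With only the 2 groups compared in the fit they numbered 557 for Kmt2c KO and 0 for Kmt2d KO against WT. DESeq2 called 224 genes for Kmt2c KO (216 of them shared with edgeR's 321), 14 for Kmt2d KO and 14 between the knockouts. For Kmt2d KO against WT a mitochondrial limit of 10% gave 1 and leaving out cells with at least 2 other cell type markers gave 0. Leaving out those cells gave 342 calls of 4706 genes tested for Kmt2c KO against WT, beside 321 of 5319 with them. Between the knockouts, at least 3 markers gave 7 and zero gates relaxed to at most 1 UMI gave 10. With tumour cells taken by Krt8 alone, 10 genes differed between the classes in Kmt2d KO.

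Leaving out 1 library at a time gave 89 to 628 calls for Kmt2c KO against WT (147 without Kmt2c KO library 2, 89 without library 3, 94, 116 and 170 without WT libraries 1, 2 and 3, and 628 without Kmt2d KO library 2), 0 to 24 for Kmt2d KO against WT (0 without WT library 1 or 3, 24 without Kmt2d KO library 1 and 16 without library 2), and 0 to 318 between the knockouts (8 without Kmt2c KO library 1 and 318 without Kmt2d KO library 2). For the difference between the classes it gave 83 to 358 in Kmt2c KO (low without WT library 3, high without Kmt2d KO library 2) and 0 to 45 in Kmt2d KO. A pair of libraries in an arm took its spread from the common fit. The cause of these shifts was not tested. The share of endothelial cells gave an exact permutation p of 0.05, and 0.00357 with cells thinned in a single random draw. It was 0.0714 with relaxed zero gates, with a mitochondrial limit of 10% or over cells without H2BMc and Krt8. With 1 library left out it was 0.0107 to 0.121 (0.0107 without Kmt2d KO library 3).

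Of 111 calls of named genes, 34 were past the threshold under every alternative run, among them Cd36, Aqp1, Aplnr, Pgf, Ccl2, Cavin2, H2-Ab1, Irf1, Bst2 and Tspan13, and 0 changed direction. Pgf and Ccl2 were tested only because of their level in the knockouts, so their calls remain descriptions. Between 28 and 68 of the 111 were lost without 1 WT or Kmt2c KO library, 0 to 3 without 1 Kmt2d KO library and 25 under DESeq2. Those of Cd74, Angpt2 and H2-K1 were lost without WT library 1, that of Cxcl9 also under DESeq2, without WT library 2 and without Kmt2c KO library 2 or 3, and that of Apln without any 1 of 5 libraries. No paired analysis was possible because the library names carry no replicate numbers of the labels. At 27 to 67 cells a library, 5319 genes had enough UMIs to test. In the simulation, which gave every gene and library the same spread, edgeR recovered 25.3% of 2-fold changes. That rate need not hold for these libraries.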
